A study of Rattus norvegicus with 6 samples.

Results

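Cathepsins, cystatins and kallikreins are proteases and protease inhibitors, and 49 such genes were measured among 14506 genes on arrays of the rat endosalpinx, the mucosal lining of the oviduct. The members were chosen by symbol alone (cathepsins beginning with Cts, cystatins with Cst and kallikreins with Klk), which gave 19 cathepsins, 11 cystatins and 19 kallikreins. Each gene was represented by its brightest probe set. RNA came from adult Sprague-Dawley females of 240 to 280 g, with 1 array for each of 3 unmated and 3 mated rats. Unmated rats were housed alone from pro-estrus and were killed at 0130 h of estrus, with uterine edema recorded. Mated rats joined a fertile male at 2200 h of pro-estrus, were found with sperm or a vaginal plug 30 min later, stayed with the male, and were killed at the same hour, 3 h after mating, with abundant semen in the uterus. No genotype, hormone or drug differed between the groups, and company of a male and handling cannot be told apart from mating. The rats of a group were labelled as biological replicates.

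Most cathepsins are lysosomal proteases that use a cysteine in the active site, while cathepsins D and E use an aspartate and cathepsins A and G a serine. Cystatins are tight-binding inhibitors of the cysteine cathepsins; stefins act inside the cell and the other members are mostly secreted. Kallikreins are secreted serine proteases that cystatins do not inhibit; the tissue kallikreins lie in 1 gene cluster, which in rodents contains a set of near-copies of Klk1, and plasma kallikrein is a separate gene of the liver. In the female tract these enzymes take part in turnover of matrix, antigen processing and cleavage of secreted proteins, and several cystatins are best known from the epididymis and testis.

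The values are log2 signals, so a difference of 1 is a 2-fold change. Brightness of different probe sets does not give the relative amounts of their RNA, so each gene was set against a background guide, the olfactory and vomeronasal receptor genes. The 95th percentile of the means of these 1240 genes was a log2 signal of 7.13, and a gene at or below it is described as within the receptor range. Epithelial markers were bright, with Krt8, a keratin of simple epithelia, at a mean of 12.97, and all 7 measured markers of the list lay above the receptor range. Neutrophil and mast cell markers lay above it for 1 of 12 genes, cytotoxic lymphocyte markers for 3 of 10, and sperm and male tract markers for 2 of 14. Macrophage and dendritic cell markers lay above it for 12 of 13 and fibroblast markers for 8 of 9. In bulk tissue, fewer cells of a type and less RNA per cell cannot be told apart.

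Of the 49 members, 22 (44.9%) lay above the receptor range, against 71.1% of all genes. The share differed by family: 11 of 19 cathepsins, 4 of 11 cystatins and 7 of 19 kallikreins. Counted by role, 18 of 38 proteases and 4 of 11 inhibitors lay above it. The 4 inhibitors were Cst3, Cstb, Cst6 and Cst7. The 5 brightest cathepsins stood among the brightest genes of the array, at the 96.1st percentile of all genes or above.

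**Figure D1:**
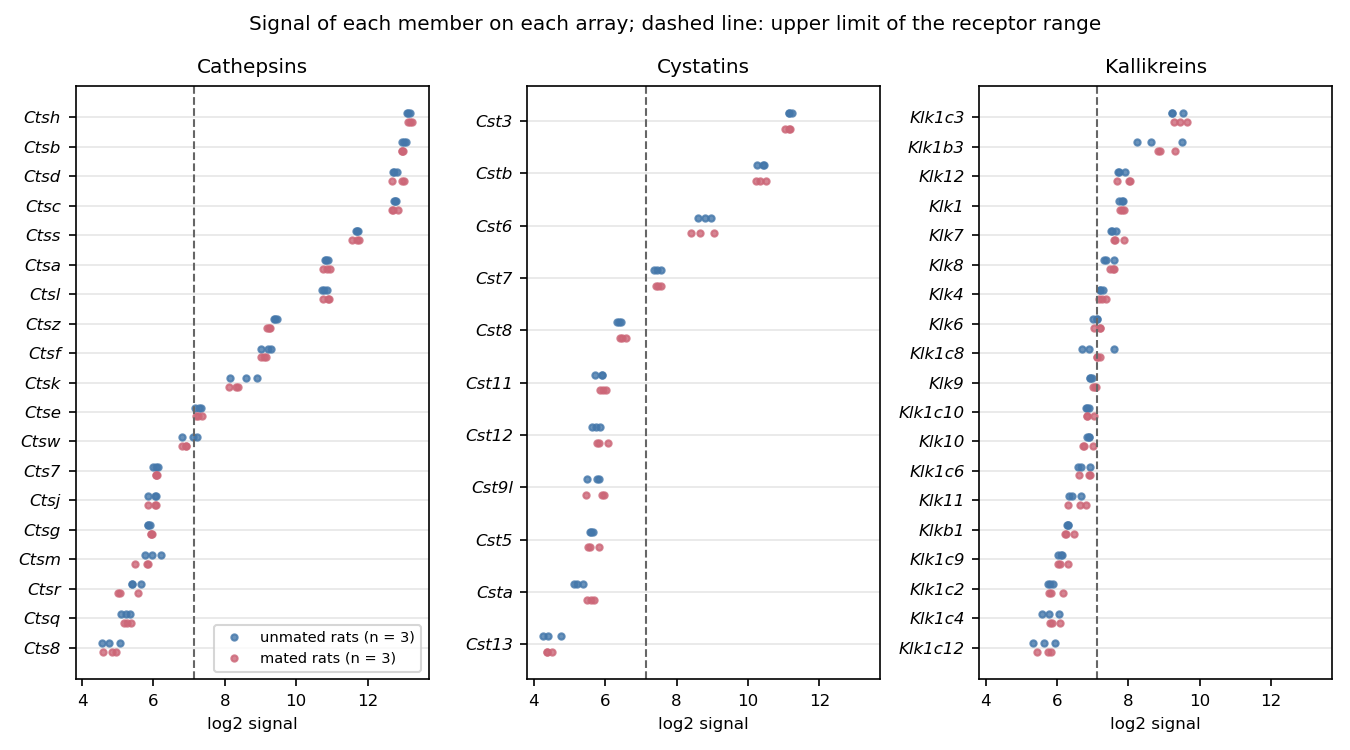
Log2 signal (horizontal axis) of every member (rows, ordered by mean within each family) on each of 6 arrays, with 1 point per rat, unmated rats in blue and mated rats in red. The dashed line is the upper limit of the receptor range, 7.13; Ctsh, Ctsb, Ctsd and Ctsc lie far to its right in both groups, and the placental cathepsins and the Cst8 subgroup lie to its left.

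The 5 brightest cathepsins were nearly level between the groups. Ctsh, an aminopeptidase of the lysosome, had log2 signals of 13.18, 13.13 and 13.12 in unmated and 13.13, 13.20 and 13.26 in mated rats. Ctsb, an abundant lysosomal protease with endopeptidase and carboxydipeptidase activity, had 13.09, 13.01 and 12.97 in unmated and 12.96, 12.98 and 13.00 in mated rats. Both sets of values overlapped between the groups, and the differences were 0.05 (95% confidence interval -0.10 to 0.21) and -0.04 (-0.20 to 0.11). Ctsd, the main aspartic protease of the lysosome, had 12.74, 12.84 and 12.72 in unmated and 13.02, 12.97 and 12.69 in mated rats. Mated replicates 1 and 2 lay above every unmated rat, mated replicate 3 lay below them all, and the difference was 0.13 (-0.10 to 0.35). Ctsc, which activates the serine proteases of leukocyte granules, had 12.81, 12.76 and 12.74 in unmated and 12.70, 12.86 and 12.72 in mated rats. Ctss, which trims the invariant chain of MHC class II in antigen-presenting cells, had 11.67, 11.71 and 11.72 in unmated and 11.57, 11.76 and 11.70 in mated rats. For both genes the mated values reached beyond the unmated values on both sides, with differences of -0.01 (-0.18 to 0.16) and -0.02 (-0.19 to 0.15). For these 5 genes the unadjusted intervals reached no further than 0.35 from 0 on the log2 scale.

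Ctsa, a carboxypeptidase that protects lysosomal sialidase and beta-galactosidase, averaged 10.85 ± 0.05 in the unmated group and 10.86 ± 0.10 in the mated group (SD; n = 3 each). Ctsl, a broad cysteine endopeptidase, averaged 10.80 ± 0.07 and 10.85 ± 0.10. Ctsf averaged 9.18 ± 0.14 and 9.10 ± 0.07, and Ctse, an aspartic protease of the endosome, averaged 7.26 ± 0.08 in each group. Ctsw, a cathepsin of cytotoxic lymphocytes, lay just within the receptor range at a mean of 6.96, with a difference of -0.17 (-0.42 to 0.08). Among the markers of those cells, Gzmb, a granzyme, was the brightest at 8.20 with a difference of 0.06, and Nkg7, a granule protein, had the smallest p with a difference of -0.23. Of the 10 markers 5 were higher and 5 lower in mated rats, at a median of -0.01, and the groups were apart only for Prf1 and Il2rb, both higher; their part in the value of Ctsw was not tested. Ctsg, the neutrophil granule protease, lay well within the range at 5.91. The 6 cathepsins of the placental cluster, a rodent expansion of cathepsin L known from the placenta, all lay within the range, with means from 4.80 for Cts8 to 6.07 for Cts7.

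Sequence before the gene start was taken from RefSeq windows (build GRCr8), which were matched for 40 of the 49 members. The number of CpG sites in the 250 bases before the start had a median of 11.5 over 10 cathepsins above the receptor range and of 1.5 over 6 cathepsins within it. The same order held over all measured genes with a single window, with a median of 16 sites for 8199 genes above the range and 3 for 3303 genes within it. Cystatins above the range had a median of 8 sites (3 genes) and those within it of 2 (5 genes), while kallikreins had a median of 3 on both sides (5 and 11 genes). Ctsl and Cts8 are shown first because they belong to the same gene family on chromosome 17 and differ widely in both measures, with 24 sites and 1 site and mean signals of 10.82 and 4.80. Ctsz and Csta follow because they had the smallest p of the cathepsins and the cystatins, with 14 sites and 1 site. Ctsh is shown as 1 of several exceptions, since it was the brightest member and had 3 sites. Ctsk, Ctse and Ctss, also above the range, had 3, 4 and 5 sites. Over all 18 members above the range with a window the median was 5.5, against 2 over 22 within it. Capitals mark CpG sites, and each sequence runs 5′ to 3′ on the gene's strand, from chr17:769854-770103 (plus strand) for Ctsl, chr17:3474083-3474332 (plus) for Cts8, chr3:183653848-183654097 (minus) for Ctsz, chr11:78125563-78125812 (plus) for Csta and chr8:99488506-99488755 (plus) for Ctsh.
Ctsl: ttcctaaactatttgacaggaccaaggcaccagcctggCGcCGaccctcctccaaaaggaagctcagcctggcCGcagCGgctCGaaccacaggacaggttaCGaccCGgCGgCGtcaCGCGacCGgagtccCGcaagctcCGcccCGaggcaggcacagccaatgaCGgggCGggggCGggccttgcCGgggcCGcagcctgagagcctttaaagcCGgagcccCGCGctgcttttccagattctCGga
Cts8: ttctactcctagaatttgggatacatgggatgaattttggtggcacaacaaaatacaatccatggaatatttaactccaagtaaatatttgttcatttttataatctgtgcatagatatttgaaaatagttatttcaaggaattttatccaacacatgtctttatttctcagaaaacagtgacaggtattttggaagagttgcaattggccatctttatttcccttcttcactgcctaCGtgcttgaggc
Ctsz: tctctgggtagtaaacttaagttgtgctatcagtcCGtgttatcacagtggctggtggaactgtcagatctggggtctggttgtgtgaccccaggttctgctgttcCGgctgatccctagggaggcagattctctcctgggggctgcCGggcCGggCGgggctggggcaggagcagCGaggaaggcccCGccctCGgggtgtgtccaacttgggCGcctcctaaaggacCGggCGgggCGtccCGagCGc
Csta: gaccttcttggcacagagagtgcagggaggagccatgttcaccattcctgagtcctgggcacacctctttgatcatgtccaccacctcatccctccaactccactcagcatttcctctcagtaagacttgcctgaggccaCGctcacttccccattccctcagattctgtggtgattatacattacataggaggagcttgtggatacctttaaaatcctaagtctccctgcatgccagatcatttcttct
Ctsh: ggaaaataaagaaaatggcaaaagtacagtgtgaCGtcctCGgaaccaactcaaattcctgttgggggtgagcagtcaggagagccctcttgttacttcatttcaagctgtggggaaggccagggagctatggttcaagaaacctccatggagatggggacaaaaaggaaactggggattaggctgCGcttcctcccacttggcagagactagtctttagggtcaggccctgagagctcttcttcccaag

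The hexamer CACGTG, the core of the site bound by the lysosomal regulator TFEB, reads the same on both strands and was found in the 300-base windows of 3 of 40 members (7.5%), Ctsd, Ctsf and Cstb, against 6.42% of 33469 windows in RefSeq. Ctsd held 2 copies in the 250 bases before its start (chr1:206968822-206969071, minus strand), marked here in capitals. A match is a description of letters and not of binding. Tfeb itself had a difference of 0.07 (95% confidence interval -0.08 to 0.22).
Ctsd: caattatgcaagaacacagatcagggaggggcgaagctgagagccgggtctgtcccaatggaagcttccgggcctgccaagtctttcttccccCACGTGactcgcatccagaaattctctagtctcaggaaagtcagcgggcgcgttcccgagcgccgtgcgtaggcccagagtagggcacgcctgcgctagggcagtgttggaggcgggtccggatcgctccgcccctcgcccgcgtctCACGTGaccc

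**Figure D2:**
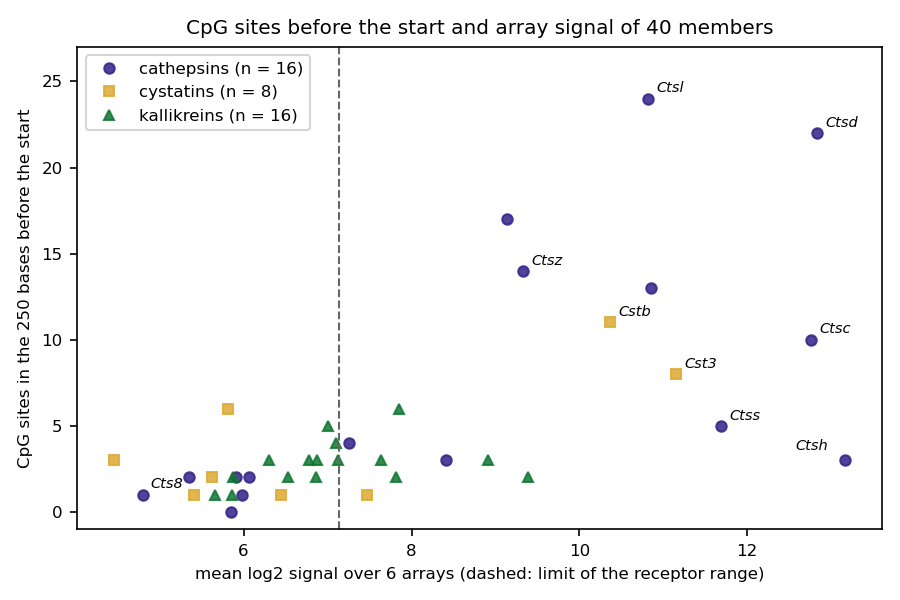
Number of CpG sites in the 250 bases before the start (vertical axis) against the mean log2 signal over 6 arrays (horizontal axis) for the 40 members with a RefSeq window, by family. Members within the receptor range (left of the dashed line) have 0 to 6 sites and those above it have 1 to 24; signals of different probe sets do not give the order of RNA amounts.

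Mating was compared by limma over all 14506 genes. The adjusted threshold of 0.05 was passed by 0 of 49 members and 0 of all genes (0%). An unadjusted p under 0.05 was found for 2 of 49 members (4.08%), Ctsz and Csta, against 4.57% of all genes. The 3 unmated and 3 mated values did not overlap for 4 of 49 members (8.16%), against 8.47% of all genes. These were Ctsz, lower in mated rats, and Csta, Ctsg and Klk9, higher. Both shares lay near the background of all genes. The largest fold of any member was 1.28, for Csta.

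Ctsz, a lysosomal carboxypeptidase, had log2 signals of 9.42, 9.38 and 9.45 in unmated and 9.28, 9.25 and 9.18 in mated rats. All mated values were lower, and the difference was -0.18 ± 0.07 (standard error; 95% confidence interval -0.33 to -0.03; unadjusted p = 0.0266, adjusted p = 0.984 by limma). Ctsz is expressed widely in macrophages, and of the 13 macrophage and dendritic cell markers 9 were lower and 4 higher in mated rats, with a median difference of -0.04. Of all 14506 genes 6593 were lower. The mean log2 signal of the marker list ranged from 8.45 to 8.65 on the unmated and from 8.45 to 8.50 on the mated arrays. The groups did not overlap for 1 of the 13 markers (7.69%, against 8.47% of all genes). This was Csf1r, with 8.79, 8.66 and 8.77 in unmated and 8.65, 8.60 and 8.59 in mated rats, and a difference of -0.13 (-0.29 to 0.03). Lyz2, a lysozyme of macrophages, was the marker of smallest p, with log2 signals of 10.48, 10.13 and 9.99 in unmated and 9.90, 9.75 and 10.13 in mated rats, which overlapped, and a difference of -0.27 (-0.60 to 0.06). Cd14, a receptor for bacterial lipopolysaccharide and the brightest marker, had 12.24, 12.30 and 12.27 in unmated and 12.52, 12.28 and 11.52 in mated rats, with mated replicate 1 the highest array and mated replicate 3 the lowest. The part of these cells in the value of Ctsz was not tested.

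Ctsk, a collagen-degrading cathepsin of osteoclasts and fibroblasts that was chosen after its values were seen, had the lowest difference of the cathepsins, -0.28 (95% confidence interval -0.68 to 0.13). Its values were 8.90, 8.59 and 8.15 in unmated and 8.12, 8.32 and 8.37 in mated rats, so the groups overlapped, through unmated replicate 3. Dcn, which encodes the matrix protein decorin and was chosen after its values were seen, had 8.0, 7.79 and 7.08 in unmated and 7.39, 7.22 and 7.21 in mated rats, with the same unmated array lowest. Mfap5, another marker of the fibroblast list chosen in that way, had unmated replicate 3 highest. Its values were 7.57, 7.55 and 7.93 in unmated and 7.82, 7.87 and 7.88 in mated rats. Of the 9 fibroblast markers 8 were lower in mated rats, among them Col1a1, the brightest, at -0.02. Of all 14506 genes 6593 were lower. Dpt, the fibroblast marker of smallest p, had 7.38, 7.58 and 7.38 in unmated and 6.86, 7.17 and 6.94 in mated rats. Its groups did not overlap, as for 8.47% of all genes. The difference was -0.46 (95% confidence interval -0.69 to -0.22; unadjusted p = 0.00202, adjusted p = 0.984 by limma). The mean of the fibroblast list lay between 7.58 and 7.85 on the unmated and between 7.51 and 7.66 on the mated arrays. The part of fibroblasts in the value of Ctsk was not tested. Ctsm and Ctsr of the placental cluster differed by -0.26 and -0.27 within the receptor range. For Ctsr, a second probe set of nearly the same brightness gave 0.04, so the probe sets of this gene disagreed.

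**Figure D3:**
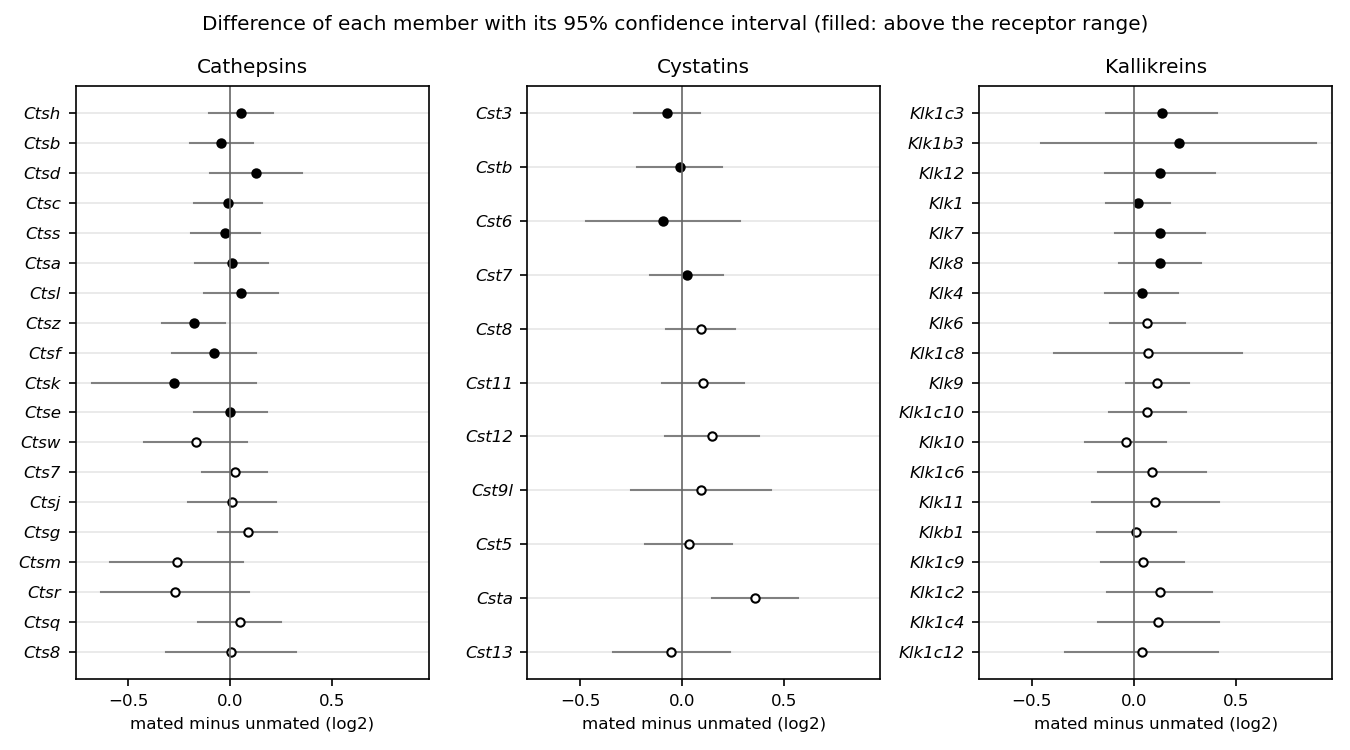
Difference of mated minus unmated rats in log2 signal (horizontal axis) for each member, with the 95% confidence interval of the fit over all genes (n = 3 per group); filled points lie above the receptor range. The intervals of Ctsz (below 0) and Csta (above 0) leave out 0, and those of the other 47 members include it.

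Among the inhibitors, the bright cystatins did not move past their spread. Cst3, cystatin C, a secreted inhibitor found in most body fluids, had log2 signals of 11.16, 11.24 and 11.16 in unmated and 11.17, 11.14 and 11.03 in mated rats. Cstb, the ubiquitous stefin B, had 10.44, 10.41 and 10.26 in unmated and 10.50, 10.24 and 10.34 in mated rats. Values overlapped for both, and the differences were -0.07 (95% confidence interval -0.24 to 0.09) and -0.01 (-0.22 to 0.20). Cst6, cystatin M, which inhibits legumain and cathepsin L in epithelia, had 8.79, 8.61 and 8.97 in unmated and 9.04, 8.40 and 8.65 in mated rats. Its mated rats spanned a wider range than its unmated rats and the interval ran from -0.47 to 0.28. Cst7, the leukocyte inhibitor cystatin F, had 7.38, 7.44 and 7.56 in unmated and 7.41, 7.56 and 7.48 in mated rats, close above the receptor range. Cst8, which gives its name to a subgroup expressed in the male reproductive tract, had 6.45, 6.40 and 6.34 in unmated and 6.47, 6.42 and 6.58 in mated rats, within that range. All 5 members of the subgroup lay within it (Cst8, Cst9l, Cst11, Cst12 and Cst13), and their differences ran from -0.05 to 0.15. Of the sperm and male tract markers 7 of 14 were higher and 7 lower in mated rats. Prm1, a protamine, was the brightest of them at a mean of 7.86, with a difference of 0.17. It had 7.82, 7.69 and 7.82 in unmated and 7.87, 7.99 and 7.98 in mated rats. Its signal thus lay above the receptor range in unmated rats too, and its source was not tested. Tnp1, a transition protein of spermatids, had the smallest p of these markers, with a difference of -0.18 within the receptor range. The means of Ctse, Cst7, Klk12, Klk1, Klk7, Klk8 and Klk4, from 7.25 to 7.85, were no higher than that of Prm1. For these members a place above the range does not by itself show expression.

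Csta, stefin A, an inhibitor known from stratified epithelia and leukocytes, had the smallest unadjusted p of all members. Its log2 signals were 5.21, 5.12 and 5.37 in unmated and 5.48, 5.60 and 5.69 in mated rats. All mated values were higher, and the difference was 0.36 ± 0.09 (standard error; 95% confidence interval 0.15 to 0.57; unadjusted p = 0.00446, adjusted p = 0.984 by limma). The mean of 5.41 lies at the 5.22nd percentile of all genes and below the median of the receptor genes, 5.67, so expression of Csta in this tissue was not shown by its brightness. Genes within the receptor range as a whole were higher in mated rats more often than lower (62.9% of 4198 genes), while 49.3% of the 10308 genes above it were higher. Rats carry several further stefin A genes beside Csta on the same chromosome, and signal can be shared among near-copies. Neutrophil and mast cell markers, mostly within the receptor range too, had a median difference of 0.02, and their list mean lay between 6.09 and 6.22 on the unmated and between 6.12 and 6.19 on the mated arrays. Elane, neutrophil elastase, was the marker of smallest p there, with 6.82, 6.89 and 6.93 in unmated and 7.08, 7.15 and 7.08 in mated rats. The part of leukocytes in the value of Csta was not tested.

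**Figure D4:**
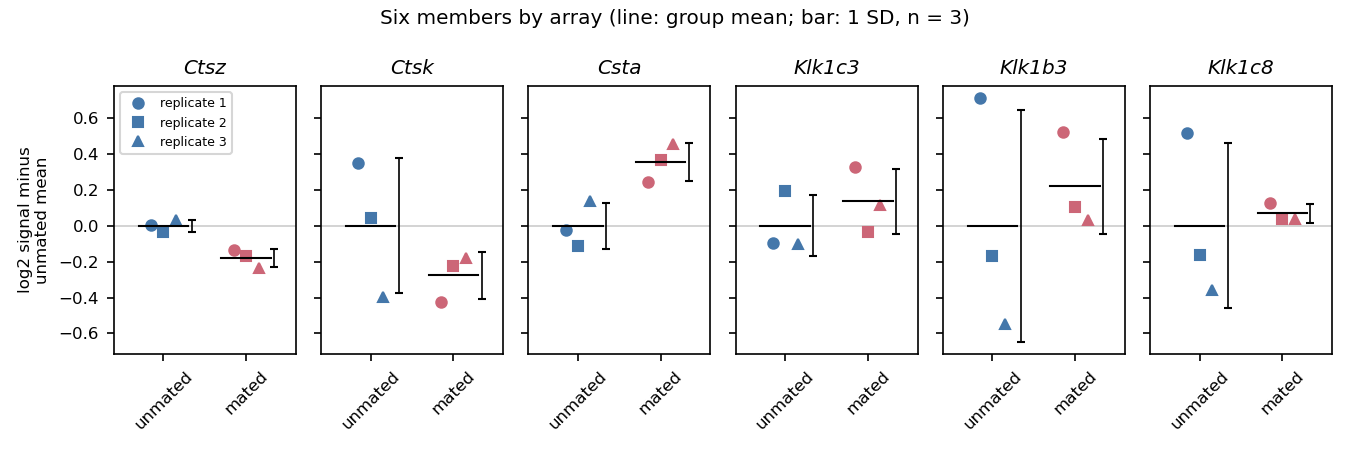
Log2 signal minus the mean of the unmated rats (vertical axis) for 6 members on each array (circles, squares and triangles are replicates 1, 2 and 3 of each group); lines are group means and bars are 1 SD (n = 3). The groups are apart for Ctsz and Csta and overlap for Ctsk, Klk1c3, Klk1b3 and Klk1c8, and unmated replicate 1 is the highest array for both Klk1b3 and Klk1c8.

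Kallikreins lay slightly higher in mated rats for 18 of 19 genes, with a median difference of 0.09, against 53.2% of all genes and a median of 0.01. Of the 19 kallikreins 12 lay within the receptor range, where 62.9% of all genes were higher, at a median of 0.04. Above that range 49.3% of all genes were higher, at a median of 0. No kallikrein reached an unadjusted p under 0.05. The median of the family on each array was 6.93, 6.91 and 6.92 in unmated and 7.03, 7.08 and 7.05 in mated rats. With the family split at the receptor range, the medians of the groups overlapped on both sides. They were 7.73, 7.70 and 7.83 in unmated and 7.67, 7.89 and 7.89 in mated rats for the 7 genes above it. For the 12 genes within it they were 6.515, 6.51 and 6.685 in unmated and 6.55, 6.815 and 6.69 in mated rats. The direction held for 17 of 19 genes after a second quantile normalization and after median centring, where the family median was 0.06 and 0.07, and for 14 of 19 without mated replicate 2 (median 0.04). All 7 kallikreins above the receptor range were among the higher ones, and the exception was Klk10, at -0.04. These 7 genes had a median mean signal of 7.82, against 9.31 for all genes above the range. The 49.3% is therefore not a share of genes of like brightness. The share of all genes that were higher fell to 50.4% without the dimmest 25% and to 45.3% without the dimmest 50%. Members of a gene cluster share sequence, so these counts are not independent of each other.

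The brightest kallikrein was Klk1c3, of the Klk1 subfamily of glandular kallikreins, at 9.23, 9.52 and 9.22 in unmated and 9.65, 9.29 and 9.44 in mated rats. Klk1b3, whose RefSeq synonym Ngfg refers to the gamma subunit of nerve growth factor, had 9.51, 8.63 and 8.25 in unmated and 9.32, 8.90 and 8.83 in mated rats. It had the widest spread of the 49 members, with an SD of 0.65 in unmated rats, and its difference of 0.22 had a 95% confidence interval from -0.45 to 0.89. Klk1c8, chosen after its values were seen, with 7.59, 6.91 and 6.71 in unmated and 7.20, 7.11 and 7.11 in mated rats, followed the same order, with unmated replicate 1 highest and unmated replicate 3 lowest. The 300-base RefSeq windows at the starts of Klk1b3 and Klk1c8 were identical at 255 of 282 aligned bases (90.4%). Over the 36 pairs of the subfamily with a window, the identity of aligned bases ran from 83.5% for Klk1b3 and Klk1c2 to 95.5% for Klk1c10 and Klk1c4. Klk1c10, Klk1c3 and Klk1c4 had windows closer to that of Klk1c8 (93.6%, 93.0% and 92.7%). Of these, Klk1c10 and Klk1c3 did not follow that order, and Klk1c4 followed it except that mated replicate 2 was highest. These windows lie mostly before the transcript, and probe sequences were not compared, so which copy a probe set measured was not tested. Klk1 itself, the tissue kallikrein that releases kinins, had 7.84, 7.75 and 7.83 in unmated and 7.81, 7.78 and 7.89 in mated rats. Its values overlapped, with a difference of 0.02 (-0.14 to 0.18).

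Klk12 had 7.73, 7.70 and 7.92 in unmated and 7.67, 8.04 and 8.03 in mated rats. Klk7, the chymotryptic kallikrein that cleaves desmosomes in skin, had 7.51, 7.55 and 7.66 in unmated and 7.60, 7.89 and 7.62 in mated rats. Groups overlapped for both, at a difference of 0.13 each. Klk9 had the smallest p of the kallikreins, with 6.93, 6.92 and 6.98 in unmated and 7.10, 7.08 and 7.0 in mated rats. Its mated values all lay higher by a narrow margin, and the difference was 0.12 (95% confidence interval -0.04 to 0.27; unadjusted p = 0.117, adjusted p = 0.984 by limma), within the receptor range. Klk6, a trypsin-like kallikrein, lay just within the range at a mean of 7.12, and Klk4, the enamel matrix protease, lay just above it at 7.25. Klkb1, plasma kallikrein, lay within it at 6.30 with a difference of 0.01. Klk1c10 had 3 probe sets, whose differences ran from -0.03 to 0.07.

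Proteases and inhibitors are set side by side here without a test of their difference. The median difference was 0.04 over 38 proteases, which pools families of unlike direction, and 0.03 over 11 inhibitors. For the genes above the receptor range it was -0.01 for 11 cathepsins, -0.04 for 4 cystatins and 0.13 for 7 kallikreins. These groups were unlike in brightness, with median mean signals of 10.85, 9.55 and 7.82. Among the 9 lysosomal cysteine cathepsins, the targets of the cystatins, 7 were lower and 2 higher in mated rats, at a median of -0.04. Of these 9 genes 8 lay above the receptor range, where 49.3% of all genes were higher. Only the interval of Ctsz left out 0.

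Partners of these proteins, written as lists with earlier results known, gave 0 genes past the adjusted threshold in either direction. All 17 measured lysosomal hydrolases and membrane proteins lay above the receptor range, and 0 of them had an unadjusted p under 0.05. Psap, the precursor of the saposins, was the brightest at a mean of 13.02 with a difference of -0.07, and Neu1, the sialidase protected by Ctsa, had the smallest p with a difference of 0.10 (95% confidence interval -0.06 to 0.26). Of 9 genes of sorting and control, 0 had an unadjusted p under 0.05; M6pr, a receptor that carries lysosomal enzymes, averaged 12.27 and differed by -0.01. In the kallikrein and kinin list 1 of 15 genes was higher and 0 lower at that level, which 4.57% of all genes reached. This was Cpm, a membrane carboxypeptidase that trims kinins, at 8.52, 8.43 and 8.38 in unmated and 8.96, 8.93 and 8.65 in mated rats, and its difference was 0.40 (0.18 to 0.63; unadjusted p = 0.00326, adjusted p = 0.984 by limma). Prss8, the epithelial protease prostasin, was the brightest of the list at 11.92, with a difference of -0.15. The kinin receptors Bdkrb1 and Bdkrb2 and the kininogens Kng1 and Kng2, chosen after their values were seen, lay within the receptor range. Of 7 related inhibitors of the cystatin fold or superfamily, 2 were higher at that level and 0 lower. These were Lxn, latexin, an inhibitor of carboxypeptidases, with 10.03, 9.99 and 10.08 in unmated and 10.32, 10.15 and 10.29 in mated rats, and Rarres1, with 11.67, 11.51 and 11.42 in unmated and 11.65, 11.83 and 11.74 in mated rats. Their differences were 0.22 (0.05 to 0.39) and 0.21 (0.003 to 0.41), with an adjusted p = 0.984 by limma for each.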

How the data were processed

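RNA of the endosalpinx of 6 rats was labelled by a whole-transcript protocol (0.3 µg of total RNA each) and measured on Affymetrix arrays, per the labels. The submitters' processing notes name RMA and Affymetrix Expression Console. The unit of the deposited values, log2 signal of a probe set, was read from their range; versions, genome build and scan dates are not given in the sources used here. RMA compresses changes of dim probe sets.

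Of 29214 probe sets, 15310 had 1 gene symbol and gave 14506 genes. The rule found 52 probe sets of 49 genes and left out 1 with several symbols. Groups were compared with limma 3.58.1 in R 4.3.3 (lmFit, eBayes, no block), two-sided, with Benjamini-Hochberg adjustment over all genes. The procedure was tested on simulated data with changes larger than that of any member, so its power for changes as small as those of the members was not tested. The 95% confidence interval reached 0.20 to either side for the median member, as the number of arrays limits precision.

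Values on each array are given for the 5 brightest members of each family, for members with an unadjusted p under 0.05 and for the member of smallest p in each family, and also for Ctsk and Klk1c8, chosen after their values were seen. Lists are described by their brightest gene and that of smallest p, apart from genes said to be chosen after their values were seen. Members and lists were chosen with earlier results of these data known. Alternatives covered a block on the replicate number, eBayes with a trend or robust, array weights, 2 further normalizations, filters on the dimmest 25% and 50% of genes, the mean of a gene's probe sets, other background limits and each rat left out.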

Additional observations from a re-analysis of the deposited data

How the results depend on the processing

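No gene and no member passed the adjusted threshold by limma under any of 15 alternatives, while 663 genes and 2 members had an unadjusted p under 0.05 as deposited. That count of genes was 1207 with array weights and 262 without the dimmest 50% of genes, and 432 without unmated replicate 2 and 1403 without mated replicate 1, the lowest and highest with 1 rat left out. For members it was 1 with the replicate block, and also without the dimmest 25% or 50%, and ran from 1 (without mated replicate 2) to 4 (without unmated replicate 1) with 1 rat left out. Members whose groups did not overlap numbered 4, or 2 and 1 under those filters, and 7 to 10 with 1 rat left out, where fewer arrays make separation easier. They were 10 without unmated replicate 1 or mated replicate 1, 9 without mated replicate 2, 8 without unmated replicate 3 and 7 without unmated replicate 2 or mated replicate 3. The share of all genes without overlap rose alike, from 8.47% to between 14.6% and 26.8%, beside 14.3% to 20.4% of members. The kallikrein median of 0.09 was 0.06 after a second quantile normalization, 0.12 (10 genes) and 0.18 (2 genes) under the filters, and 0.043 to 0.097 with 1 rat left out. The cystatin median of 0.03 had no stable sign or size: it was -0.042 and -0.073 without the dimmest 25% and 50% (4 and 3 genes), 0.067 with array weights, 0.017 under both other normalizations, 0 without mated replicate 3, 0.013 without unmated replicate 2, 0.055 and 0.06 without mated replicates 2 and 1, and 0.073 without unmated replicate 3. With the limit at the median of the receptor genes, 42 members lay above it, against 22.

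Csta kept its direction under 13 of 13 alternatives (0.30 to 0.43); the filters removed it. Ctsz kept its direction under 15 of 15 (-0.20 to -0.15). Ctsz was no longer among the genes with an unadjusted p under 0.05 by limma with the replicate block, or without unmated replicate 1, unmated replicate 3, mated replicate 2 or mated replicate 3.

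Correlations of the deviations of same-numbered rats were 0.004, -0.08 and 0.07, and those of differently numbered rats ran from -0.13 to 0.14. With 3 rats per group these values cannot show whether the number marks a batch or day, and the labels do not say what it marks. The replicate block left 0 genes called.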
